A study of Homo sapiens with 4 samples.

Results

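The genes described here are the cancer-testis antigen families MAGEA, MAGEB, MAGEC, CSAG, PAGE, GAGE, XAGE, SSX, CTAG, CT45 and CT47 in thyroid cancer cells with and without CRABP1. Members were selected by symbol: every protein-coding gene whose symbol begins with one of these family names, leaving out SSX2IP, which gave 93 of the 58884 genes of the expression table. Of these, 87 lie on chromosome X. The other 6 are CTAGE genes, which match the letters CTAG but form a separate autosomal family. They are described apart below but count among the 93 in each count of members. The families were chosen with the difference between CRABP1 and vector libraries already known for some of them. Their values with CRABP1 are therefore a description and carry no test.

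The study transfected human thyroid cancer lines with a vector that overexpresses CRABP1 or with an empty vector and sequenced their RNA. FTC-133 is a line from a follicular thyroid carcinoma and 8505C one from an anaplastic thyroid carcinoma. CRABP1 is a cytosolic protein that binds retinoic acid. The 4 groups were FTC-133 with empty vector, FTC-133 overexpressing CRABP1, 8505C with empty vector and 8505C overexpressing CRABP1, with 1 library in each, so no comparison with CRABP1 has replicates. No source used here gives the clonality of the cells, the time after transfection or the promoter of the vector. All cells had been transfected, and no untransfected library was analysed here.

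Values are in TPM, transcripts per 1000000, a level corrected for gene length and depth. The number of reads behind each value was recovered from the TPM and the exon length, with totals of 20331552 reads in FTC-133 vector, 20309263 in FTC-133 CRABP1, 19174544 in 8505C vector and 19304351 in 8505C CRABP1. CRABP1 itself was at 0 TPM in both vector libraries, 385 TPM in FTC-133 CRABP1 and 537 TPM in 8505C CRABP1. Of the thyroid factors, PAX8 stood at 100 and 143 TPM in FTC-133 (vector, then CRABP1) but at 0.240 and 0.161 TPM in 8505C, and NKX2-1 was above 15 TPM in every library. The thyroid function genes TG, TSHR and SLC5A5 were below 1 TPM in all 4 libraries. None of 7 testis germ cell markers (DDX4, DAZL, SYCP3, PRM1, PRM2, TNP1 and ACR) reached 1 TPM in any library, and their summed level was 0.377 to 0.917 TPM, with PRM1, PRM2 and TNP1 at 0 throughout.

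Cancer-testis genes are transcribed in male germ cells, are silent in most adult tissues through DNA methylation of their promoters, and are switched on again in many tumours, where T cells can recognise peptides of their proteins. Most X-linked families arose by repeated duplication and hold near-identical copies. MAGE proteins share a MAGE homology domain through which they bind RING-type ubiquitin ligases. PAGE, GAGE and XAGE proteins are small, acidic and largely unstructured, and SSX proteins are nuclear repressors of transcription.

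The FTC-133 libraries held more of these transcripts than the 8505C libraries. The libraries are bulk RNA, so fewer cells with a transcript and less of it per cell cannot be told apart. At 1 TPM or more there were 33 members in each FTC-133 library and 14 in each 8505C library. Their summed level was 1798 TPM in FTC-133 vector and 1704 TPM in FTC-133 CRABP1, against 397 TPM in 8505C vector and 364 TPM in 8505C CRABP1. Without the CTAGE genes, 31 members reached 1 TPM in each FTC-133 library, and the sums were 1791, 1695, 396 and 363 TPM. In FTC-133 vector no member dominated: MAGEB2 held 11.9% of the sum, MAGEC2 11.2% and PAGE2 9.75%. In 8505C vector, MAGEA3 alone held 40.4% and MAGEA3, MAGEA6, CSAG1 and MAGEA12 together 79.9%. In all 4 libraries 11 members reached 1 TPM, 16 did so in both FTC-133 libraries and in neither 8505C library, and 1 member (GAGE1) did so in an 8505C library alone.

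**Figure D1:**
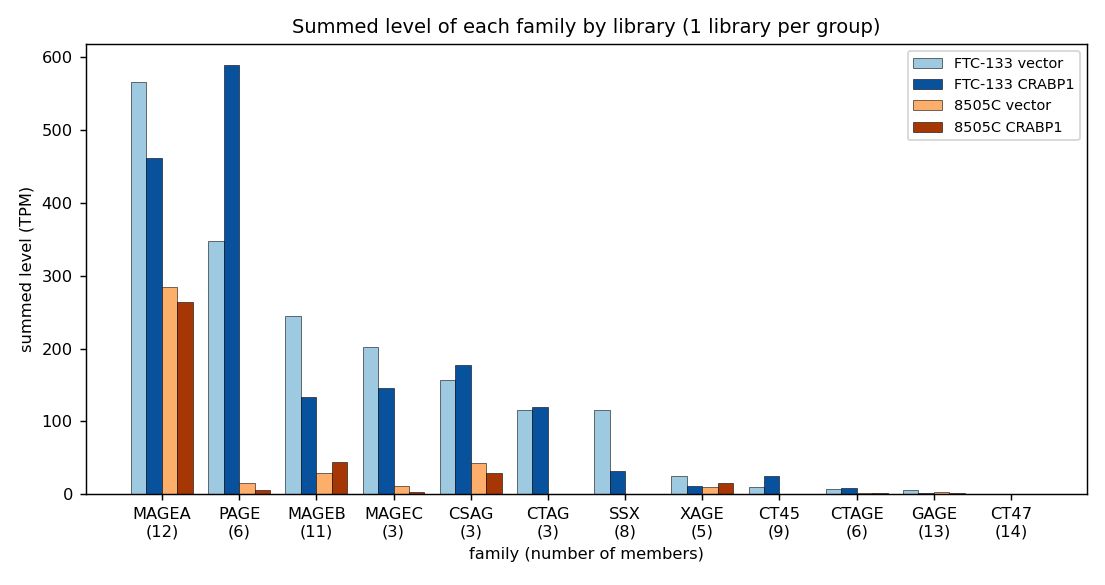
Summed level (TPM) of each family in each of the 4 libraries, with the number of members under the family name. The MAGEA genes gave 565 TPM in FTC-133 vector and 284 TPM in 8505C vector, whereas the PAGE sum was 348 TPM in FTC-133 vector and 16.1 TPM in 8505C vector.

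Below, the 4 values of a gene are always in the order FTC-133 vector, FTC-133 CRABP1, 8505C vector, 8505C CRABP1. A ratio is the TPM with CRABP1 over the TPM with vector, and the interval after it is the 95% exact binomial (Clopper-Pearson) interval, which covers counting error only and not the spread between cultures. Gene positions are from GENCODE 29 on GRCh38. Each promoter sequence is from RefSeq on GRCh38.p14 and ends 10 bases after a RefSeq transcript start. It is written 5′ to 3′ on the strand of the gene.

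Of the 12 MAGEA genes, all in Xq28, 10 reached 1 TPM in FTC-133 vector and 4 in 8505C vector. MAGEA3 and MAGEA6, which direct the ligase TRIM28 to its targets, were the members at the highest level in 8505C. MAGEA3 (chrX:152698752-152702347, plus strand) stood at 95.6, 75.9, 160 and 153 TPM. MAGEA6 (chrX:152766136-152769747, minus strand) stood at 115, 107, 78.0 and 69.9 TPM. MAGEA3 was thus the only named MAGEA gene higher in both 8505C libraries than in both FTC-133 libraries, and MAGEA6 was lower there. Part of the reads of the pair cannot be assigned by sequence. Of the 100-base stretches of MAGEA3 transcripts, 34.9% also occur in MAGEA6, while 65.1% occur in no other gene. Of its 50-base stretches, 54.9% occur in MAGEA6 and 43.5% in no other gene. The split of reads between MAGEA3 and MAGEA6 is therefore uncertain in part. The 250 bases before their starts are identical.

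MAGEA12 had 76.4, 79.5, 39.5 and 28.0 TPM. MAGEA1, the antigen that gave the family its name, had 76.9, 60.1, 5.06 and 11.6 TPM. MAGEA10 had 138, 95.6, 0.542 and 0.408 TPM. These genes fall from a shared range in FTC-133 to levels in 8505C that span from 39.5 TPM (MAGEA12) to under 1 TPM (MAGEA10). MAGEA12 overlaps the pseudogene CSAG4 and MAGEA10 the readthrough gene MAGEA10-MAGEA5 on the same strand, so part of their reads is uncertain. MAGEA11, known as a coregulator of the androgen receptor, had 19.4, 20.1, 0.794 and 0.739 TPM. MAGEA9B, whose reads cannot be separated well from those of its copy MAGEA9 (79.9% of stretches shared), had 14.7, 10.2, 0 and 0 TPM. MAGEA8 had 3.19, 6.98, 0 and 0.0834 TPM. The values of MAGEA11 with and without CRABP1 lay close together, and those of MAGEA8 with CRABP1 were higher in FTC-133. MAGEA2 had 1.46, 0.50, 0 and 0 TPM, on 18 reads or fewer, and shares 89.4% of its stretches with MAGEA2B.

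MAGEA4 (chrX:151912509-151925170, plus strand), which binds the DNA damage ligase RAD18, had the lowest FTC-133 ratio of the MAGEA genes. It stood at 24.4, 4.55, 0.0638 and 0 TPM, on 410, 74, 1 and 0 reads. The ratio was 0.186 (0.143 to 0.239), the lowest of all members with 20 or more reads in that line. MAGEA4 overlaps the antisense gene MAGEA4-AS1, with which it shares 2.45% of its stretches.

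The promoter sequences of MAGEA4, MAGEB1, MAGEB2 and MAGEC2 are shown because these MAGE genes, from 3 families, had ratios in FTC-133 whose intervals lay below 1 and share a short motif near the start. The motif GGATGTG, of the type bound by Ets factors, is in capitals. It was picked after reading the sequences. On either strand of 300-base promoters it was found in 15 of 23 MAGEA, MAGEB and MAGEC genes with a promoter in the table. Among all genes with a promoter, 1412 of 27305 held it. Counted by promoter, it was in 21 of 31 promoters of these MAGE genes and in 4.29% of all 35116 promoters. For MAGEA4 the upstream of 5 tabulated starts is shown, and for MAGEB1 the start with more CpG of its 2. The other MAGEB1 start has 1 CpG in its 300 bases and no match to the motif.
MAGEA4 (chrX:151912334-151912483, plus strand): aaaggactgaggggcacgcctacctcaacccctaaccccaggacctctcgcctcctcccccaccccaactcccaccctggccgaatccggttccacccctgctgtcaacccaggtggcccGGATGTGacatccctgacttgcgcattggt
MAGEB1 (chrX:30247006-30247155, plus strand): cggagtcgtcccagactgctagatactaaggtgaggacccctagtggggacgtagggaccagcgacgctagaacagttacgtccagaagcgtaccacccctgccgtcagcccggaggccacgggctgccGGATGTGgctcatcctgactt
MAGEB2 (chrX:30215423-30215572, plus strand): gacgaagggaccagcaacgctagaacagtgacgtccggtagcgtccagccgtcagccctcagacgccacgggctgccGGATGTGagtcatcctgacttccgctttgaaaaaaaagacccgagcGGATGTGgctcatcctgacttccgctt
MAGEC2 (chrX:142205281-142205430, minus strand): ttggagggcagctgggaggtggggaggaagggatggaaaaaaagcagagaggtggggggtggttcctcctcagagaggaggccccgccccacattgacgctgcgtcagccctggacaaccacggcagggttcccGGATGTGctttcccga
The motif begins 20 bases before the start in MAGEA4, 11 bases before it in MAGEB1, 63 and 17 bases before it in MAGEB2, and 6 bases before it in MAGEC2, where it spans the start. The 250 bases before the MAGEB1 and MAGEB2 starts align with 86.5% identity over 200 columns. Members that were not lower in FTC-133 hold it too: MAGEA8, with a ratio of 2.19 (1.49 to 3.26), CSAG1, with 1.18, and MAGEA11 and MAGEA12, whose intervals included 1. The match is a description of these letters and says nothing about binding. The 32 members named with values that have a promoter in the table held a median of 13 CpG in 300 bases, and all promoters a median of 14.

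Among the 11 MAGEB genes, MAGEB2 held most reads in every library. MAGEB2 (chrX:30215560-30220089, plus strand) had 214, 115, 26.7 and 42.3 TPM, on 1872, 978, 218 and 346 reads. The ratio was 0.539 (0.498 to 0.583) in FTC-133 and 1.59 (1.34 to 1.89) in 8505C. MAGEB2 was therefore lower with CRABP1 in the line where its level was high and higher with CRABP1 in the other line. MAGEB1 (chrX:30243730-30252038, plus strand), which follows MAGEB2, MAGEB3 and MAGEB4 along the chromosome, had 23.6, 7.31, 0 and 0 TPM. Its ratio was 0.310 (0.237 to 0.402) in FTC-133. MAGEB1 overlaps MAGEB4 on the same strand, and MAGEB4 had 0 reads in every library. MAGEB10 had 4.89, 7.67, 0 and 0 TPM, with a ratio of 1.57 (1.09 to 2.27). The 3 MAGEB genes above thus did not move together in FTC-133: MAGEB1 and MAGEB2 were lower with CRABP1 and MAGEB10 was higher. MAGEB16 had 1.57, 1.53, 0 and 0.0993 TPM, and MAGEB6 had 0.660, 1.07, 1.41 and 1.11 TPM, each on 17 reads or fewer a library.

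MAGEC2 (chrX:142202345-142205290, minus strand), another partner of TRIM28, was the one MAGEC gene above 1 TPM. It had 202, 146, 10.5 and 2.18 TPM, on 2186, 1534, 106 and 22 reads. It was lower with CRABP1 in both lines, with a ratio of 0.724 (0.678 to 0.773) in FTC-133 and 0.208 (0.125 to 0.332) in 8505C. No 100-base stretch of MAGEC2 occurs in another gene, so its reads are not shared with a copy.

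The 3 CSAG genes lie inside the MAGEA cluster of Xq28. CSAG1 had 116, 137, 39.6 and 26.5 TPM, on 690, 791, 220 and 147 reads. The ratio was 1.18 (1.07 to 1.31) in FTC-133 and 0.670 (0.540 to 0.830) in 8505C, in opposite directions. CSAG2, described as linked to taxane resistance, had 16.6, 19.1, 0.726 and 1.09 TPM, and CSAG3 had 24.4, 20.6, 2.00 and 2.18 TPM. CSAG2 and CSAG3 share 86.4% of CSAG2 stretches, so the split of reads between them is uncertain, and the interval of each ratio included 1 in FTC-133.

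Of the 6 PAGE genes, PAGE2 and PAGE5 were among the most abundant members in FTC-133. PAGE2 (chrX:55089008-55092842, plus strand) had 175, 378, 0.297 and 0 TPM, on 631, 1317, 1 and 0 reads. PAGE5 had 160, 205, 0.794 and 2.12 TPM. With CRABP1 the FTC-133 ratio was 2.15 (1.96 to 2.37) for PAGE2 and 1.28 (1.15 to 1.42) for PAGE5, so both were higher. PAGE2B, of which 25.3% of stretches also occur in PAGE2, had 1.45, 2.62, 1.55 and 0 TPM, on 7 reads or fewer. PAGE1 (chrX:49687450-49695993, minus strand) went the other way, with 10.9, 2.88, 13.4 and 3.59 TPM, on 39, 10, 45 and 12 reads. Its ratio was 0.265 (0.118 to 0.540) in FTC-133 and 0.267 (0.129 to 0.514) in 8505C. Among the 11 members with 20 reads or more in each pair, PAGE1 was the only one past 2-fold in the same direction in both lines, and both values rest on few reads.

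The PAGE promoters are shown to set PAGE2 and PAGE5, higher with CRABP1 in FTC-133, beside PAGE1, lower in both lines. Capitals mark GCGCATGC, a motif of the type bound by nuclear respiratory factor, also picked after reading the sequences. On either strand it was found in 3 of 6 PAGE genes and in 1006 of all 27305 genes (3.05% of all promoters). Of all 65 member genes with a promoter in the table, 18 hold it. Matches that overlap appear as 1 longer run of capitals.
PAGE2 (chrX:55088878-55089027, plus strand): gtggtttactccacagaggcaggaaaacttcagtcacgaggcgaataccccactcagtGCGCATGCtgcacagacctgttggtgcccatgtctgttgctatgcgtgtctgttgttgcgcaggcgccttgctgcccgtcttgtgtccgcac
PAGE2B (chrX:55074890-55075039, plus strand): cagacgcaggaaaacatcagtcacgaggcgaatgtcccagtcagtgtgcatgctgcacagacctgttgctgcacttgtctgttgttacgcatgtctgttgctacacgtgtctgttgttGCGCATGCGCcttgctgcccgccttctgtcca
PAGE5 (chrX:55220206-55220355, plus strand): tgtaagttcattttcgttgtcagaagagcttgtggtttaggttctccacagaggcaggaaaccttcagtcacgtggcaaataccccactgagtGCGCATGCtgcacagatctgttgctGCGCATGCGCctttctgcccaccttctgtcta
PAGE1 (chrX:49695975-49696124, minus strand): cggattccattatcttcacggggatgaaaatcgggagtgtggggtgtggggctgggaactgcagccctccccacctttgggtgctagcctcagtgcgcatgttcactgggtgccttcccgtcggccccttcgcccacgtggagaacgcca
PAGE2, PAGE2B and PAGE5 hold 1, 2 and 3 matches, and the PAGE1 window holds no match. Members with fewer reads with CRABP1 hold the motif too (reads with vector, then CRABP1). These include GAGE2A (13 and 3 reads) and XAGE1A (15 and 1 reads) in FTC-133, and GAGE1 (27 and 2 reads) in 8505C. Upstream of the starts, PAGE2 aligned with PAGE5 at 89.2% identity over 204 columns and with PAGE2B at 86.7% over 249 columns. With PAGE1, PAGE2 aligned over 107 columns at 57.9%.

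Of the 8 SSX genes, SSX1 (chrX:48255317-48267444, plus strand), one of the SSX genes fused to SS18 in synovial sarcoma, was the main one. It had 108, 29.9, 0.606 and 0.304 TPM, on 762, 205, 4 and 2 reads. In FTC-133 the ratio was 0.278 (0.237 to 0.324). SSX5 (chrX:48186220-48196763, minus strand) had 6.44, 2.30, 0 and 0 TPM, with a ratio of 0.357 (0.197 to 0.621). The neighbours SSX1 and SSX5, on opposite strands, were thus both lower with CRABP1 in FTC-133, by ratios whose intervals overlap. SSX2 had 1.08, 0, 0 and 0 TPM, where 9 reads against 0 and a floor of 3 reads give a value at least 2.91-fold lower, but its transcripts do not differ from those of SSX2B over any 100-base stretch.

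The SSX1 and SSX5 promoters are shown because both genes were lower in FTC-133 and because the sequences match in opposite orientation: the reverse complement of SSX5 aligned with SSX1 at 88.9% identity over 216 columns, against 63.6% over 66 columns in the same orientation. Capitals mark CCAATCA, a motif of the type bound by nuclear factor Y, or in SSX1 its reverse complement. It was picked after reading the sequences and was found in 7 of 7 SSX genes with a promoter in the table. Among all genes with a promoter, 2279 of 27305 held it (6.95% of all promoters).
SSX1 (chrX:48255252-48255401, plus strand): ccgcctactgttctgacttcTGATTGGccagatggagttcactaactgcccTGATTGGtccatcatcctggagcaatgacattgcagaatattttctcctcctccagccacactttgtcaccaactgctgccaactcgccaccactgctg
SSX5 (chrX:48196786-48197035, minus strand): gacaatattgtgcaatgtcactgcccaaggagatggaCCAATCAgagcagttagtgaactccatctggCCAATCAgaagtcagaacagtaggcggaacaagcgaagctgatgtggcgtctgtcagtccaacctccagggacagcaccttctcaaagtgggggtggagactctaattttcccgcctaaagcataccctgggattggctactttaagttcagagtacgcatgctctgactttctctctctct
The matches begin 120 and 89 bases before the SSX1 start and 203 and 172 bases before the SSX5 start. A direct repeat of AGGTCA spaced by 5 bases, one form of retinoic acid response element, was found in 0 of 82 member promoters and in 0.00570% of all promoters, which says only that these exact letters are not in the windows.

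Of the 5 XAGE genes, XAGE2 (chrX:52369030-52375680, plus strand) was the only one above 1 TPM in both lines. It had 18.5, 7.56, 9.41 and 15.1 TPM, on 62, 25, 30 and 47 reads. The ratio was 0.409 (0.25 to 0.672) in FTC-133 and 1.60 (0.973 to 2.57) in 8505C, where the interval included 1. XAGE1A, identical to XAGE1B over every stretch, had 2.57, 0.177, 0 and 0 TPM on 15 reads or fewer. XAGE3 had 3.56, 3.01, 0 and 0 TPM on 11 reads or fewer. The XAGE genes therefore add little to the sums.

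CTAG2, a close copy of the tumour antigen encoded by CTAG1A and CTAG1B, had 116, 119, 0 and 0.199 TPM, on 628, 621, 0 and 1 reads. Its FTC-133 ratio of 1.02 (0.912 to 1.14) included 1. CT45A10 (chrX:135881063-135889086, minus strand) had 9.44, 21.9, 0 and 0 TPM, on 52 and 117 reads in FTC-133, with a ratio of 2.32 (1.66 to 3.28). CT45A1 and CT45A5 also had more reads with CRABP1 there, 11 against 1 and 8 against 1, at 0.139 and 1.57 TPM and at 0.158 and 1.31 TPM (vector, then CRABP1), and both were at 0 in 8505C. The CT45 genes are near-copies of one another, with 56.5% of CT45A10 stretches found in CT45A7, so the sum of the family is the safer value: 9.73 TPM with vector and 25.0 TPM with CRABP1 in FTC-133, and 0 reads in both 8505C libraries.

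GAGE1 (chrX:49589496-49608536, plus strand) had 0.113, 0.351, 1.64 and 0.122 TPM, on 2, 6, 27 and 2 reads, with a ratio of 0.0743 (0.00856 to 0.296) in 8505C. GAGE2A, which overlaps GAGE1 on the same strand, had 4.52, 1.08, 1.49 and 1.12 TPM on 13 reads or fewer. With so few reads and overlapping exons, the GAGE values are uncertain. The autosomal CTAGE4 had 5.32, 5.78, 0.608 and 0.838 TPM and CTAGE8 had 1.92, 1.76, 0 and 0 TPM, and these share 90.7% of their stretches with each other.

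**Figure D2:**
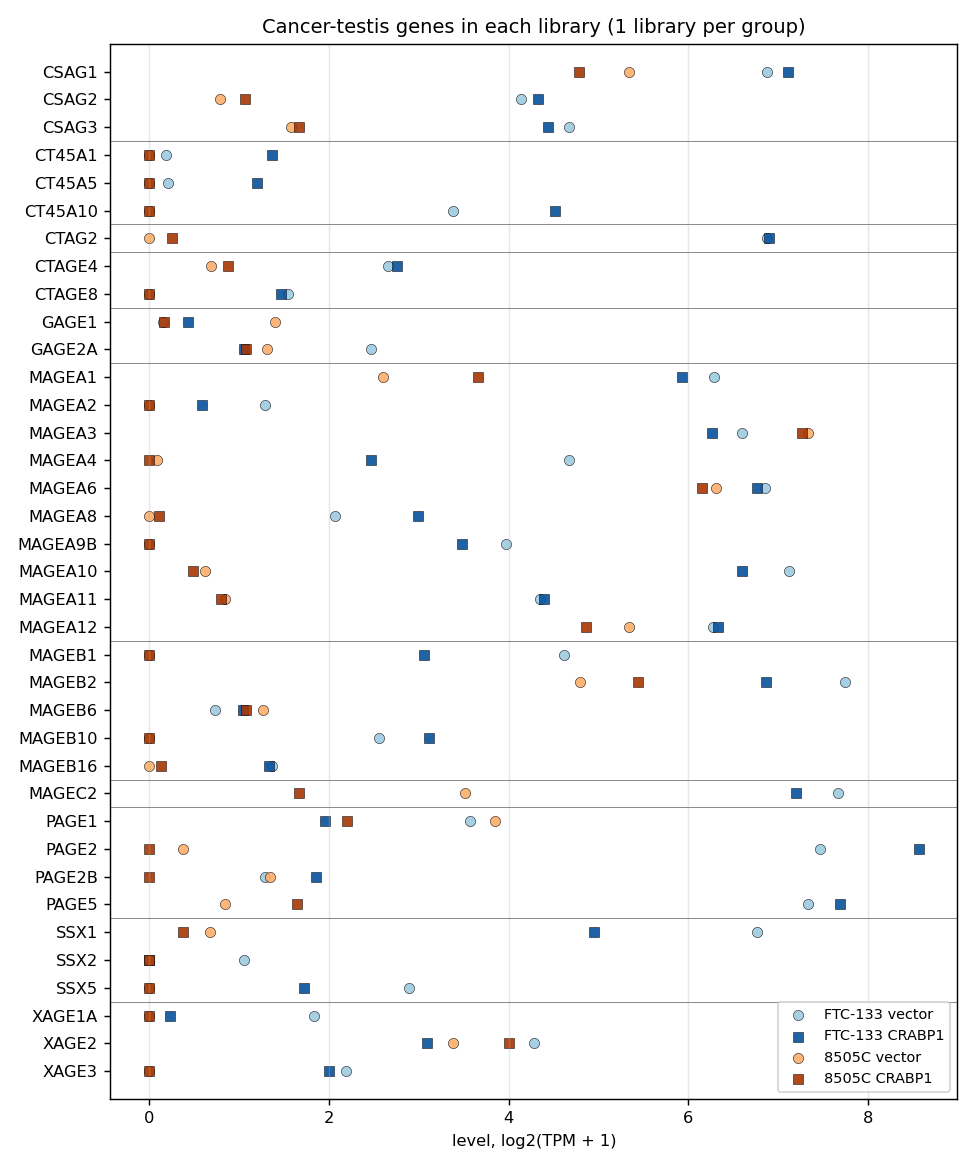
Level of each named member, as log2(TPM + 1), in the 4 libraries, 1 point per library, grouped by family. The FTC-133 points (blue) lie to the right of the 8505C points (orange) for most members, with MAGEA3, MAGEB6, PAGE1, PAGE2B, XAGE2 and the GAGE genes as exceptions.

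The other 56 members had 8 reads or fewer in any library, and 36 of them had 0 reads in all 4 libraries. The members at 0 throughout included 12 of 14 CT47 genes (CT47C1 and all CT47A genes but CT47A10), 10 of 13 GAGE genes and 5 of 9 CT45 genes, with MAGEA9, MAGEB4, MAGEB5, MAGEB6B, CTAG1B, PAGE3, SSX4, SSX4B and SSX2B. The other 20 had 1 to 24 reads summed over the libraries: MAGEC3 with 24, MAGEB18 with 14, MAGEA2B with 13, and MAGEB17, MAGEB3, MAGEC1, CTAG1A, CT45A9, CT47B1, CT47A10, GAGE10, PAGE4, SSX3, SSX7, XAGE1B, XAGE5, CTAGE1, CTAGE6, CTAGE9 and CTAGE15 with 11 or fewer. Of the 36 at 0, 24 have fewer than 10% of their 100-base stretches to themselves and their median is 0%, against a median of 86.0% for the 57 members with a read. No source used here says how reads that match several genes were treated, so a 0 for such a gene does not show that it was silent. In contrast, MAGEB4, MAGEB5, MAGEB6B, PAGE3 and CT47C1 were at 0 with at least 90% of their stretches unique.

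**Figure D3:**
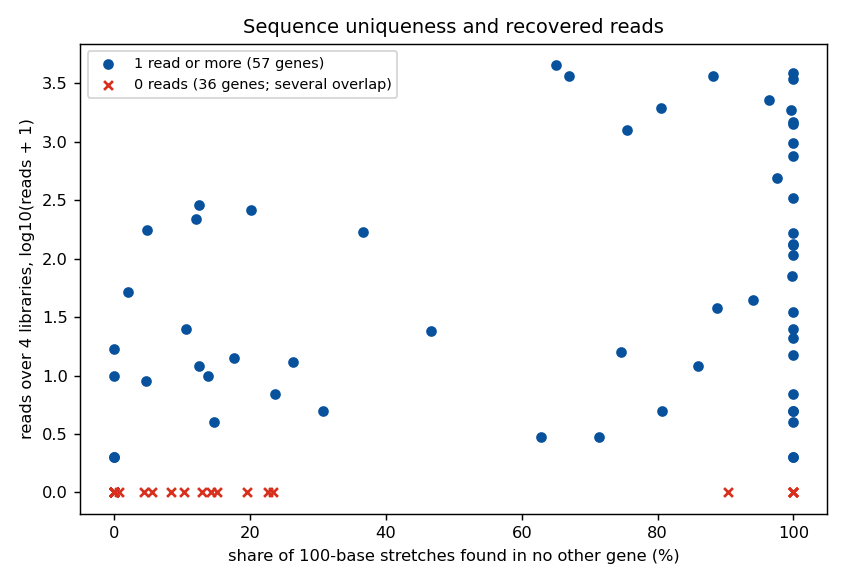
For each of the 93 members, the share of 100-base transcript stretches found in no other gene (x axis, percent) and the reads summed over the 4 libraries (y axis, log10 of reads + 1). Members at 0 reads (crosses) lie mostly at the left, where stretches are shared.

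The question of the first comparison was what differed between the CRABP1 and vector libraries in FTC-133. A gene was compared where the pair of libraries had 20 or more reads together, and it was called where log2(TPM + 1) differed by 1 or more (2-fold). Of 93 members 29 were compared, CTAGE4 and CTAGE8 among them. CT45A10 and PAGE2 were higher, which is 2 members or 6.90%, where 2.01% of all 13665 protein-coding genes compared were higher. MAGEA4, SSX1, PAGE1, MAGEB1, XAGE2 and SSX5 were lower, which is 6 members or 20.7%, where 1.4% of all genes compared were lower. The families were proposed with this contrast in view, so the shares are given side by side and nothing is read from them.

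Across the 29, 11 were higher and 18 lower, with a median log2 difference of -0.19, and the median of all genes compared was 0.05. Just past the threshold were XAGE2 (-1.19), SSX5 (-1.17), CT45A10 (1.13) and PAGE2 (1.10), and just short of it were MAGEA8 (0.93) and MAGEB2 (-0.89). Read by counting error alone, 6 of the 29 members were higher, where 32.8% of all genes compared were higher, 13 were lower, where 21.5% of all genes were lower, and for 10 the interval included 1. The 10 included CTAG2, MAGEA6, MAGEA11 and MAGEA12. Within Xq28, MAGEA10 had a ratio of 0.695 (0.650 to 0.743) and MAGEA3 one of 0.794 (0.719 to 0.876). Members lower by 2-fold or more were thus spread over MAGEA, MAGEB, PAGE, SSX and XAGE, while MAGEA3, MAGEA6, MAGEA10, MAGEA12 and CSAG1 differed by less. Beside these values, the fibroblast markers COL1A1 and COL1A2 had 388 and 213 TPM in the vector library and 175 and 156 TPM in the CRABP1 library, 3 of 5 such markers reached 1 TPM in each FTC-133 library, and the list summed to 637 and 367 TPM. DCN and PDGFRA were below 1 TPM. Of the 3 markers measured, COL1A1 and COL1A2 were lower with CRABP1 and LUM was higher. NKX2-1 was at 44.7 and 17.7 TPM. The part of these shifts in the members' values was not tested.

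**Figure D4:**
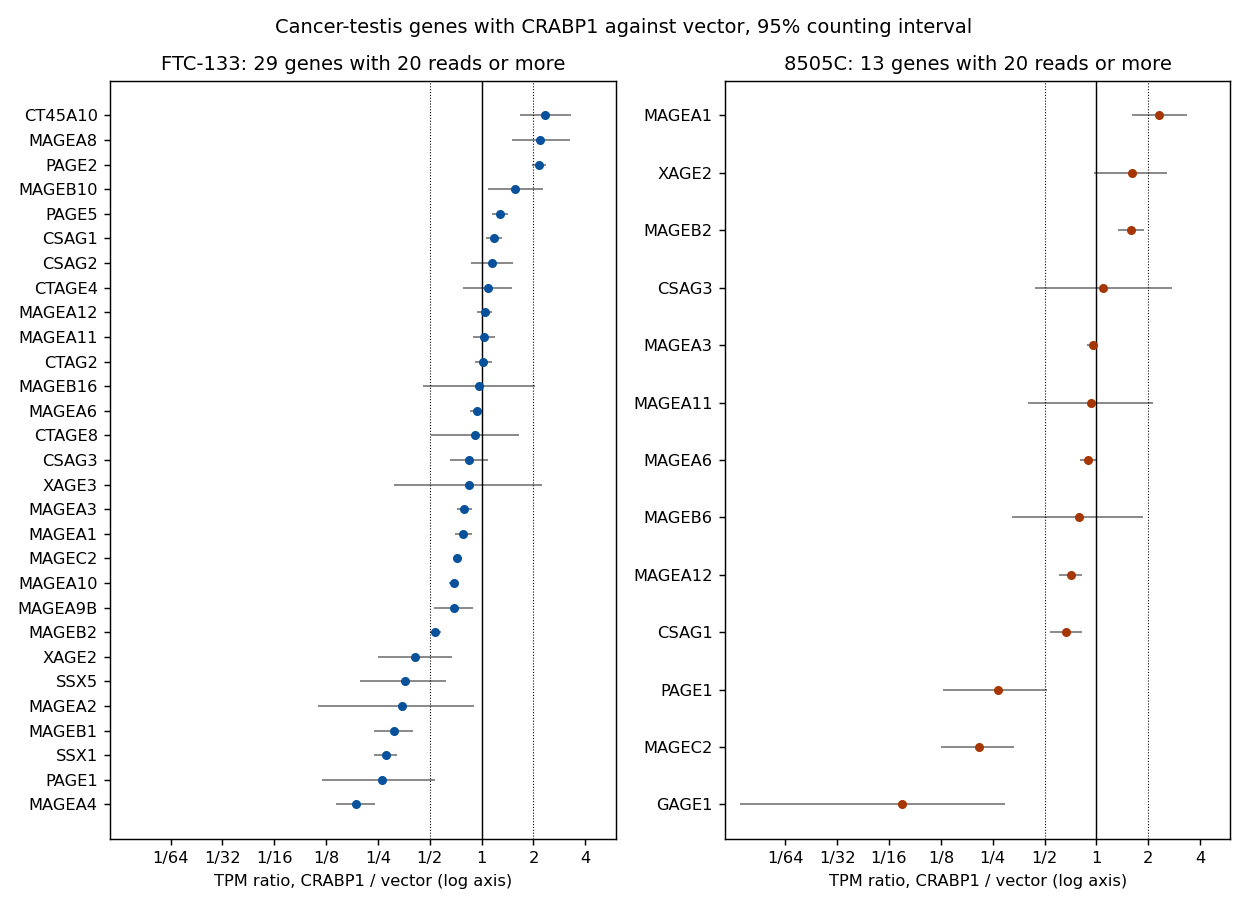
Ratio of TPM with CRABP1 to TPM with vector for the members with 20 or more reads in a pair, in FTC-133 (29 members) and 8505C (13 members), on a log axis. Lines are 95% counting intervals and dotted lines mark 2-fold. MAGEA4 has the lowest ratio in FTC-133 and GAGE1 the lowest in 8505C.

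In 8505C, where the second comparison asked the same, 13 members had enough reads. MAGEA1 was the 1 member higher by 2-fold, with a ratio of 2.30 (1.60 to 3.36) on 101 against 44 reads, where 0.226% of 12818 protein-coding genes were higher. The log2 difference of MAGEA1, 1.06, was just past the threshold. MAGEC2, PAGE1 and GAGE1 were the 3 lower by 2-fold, where 0.499% of all genes were lower. Of the 13, 4 were higher and 9 lower, with a median log2 difference of -0.16 against 0.02 for all genes compared. By counting error alone 2 of the 13 were higher, where 22.2% of all genes compared were higher, 6 were lower, where 15.8% were lower, and 5 intervals included 1. MAGEA3, the member at the highest level, had a ratio of 0.952 (0.885 to 1.03), and MAGEA12 one of 0.709 (0.605 to 0.828). The leukocyte marker CD14 had 56.5 TPM in the vector library and 28.6 TPM in the CRABP1 library, while LYZ was at 0 and PTPRC and CD3E were below 1 TPM. The fibroblast list went from 4.57 to 9.73 TPM, with LUM at 1.99 and 6.42 TPM and DCN at 1.21 and 2.45 TPM. Of that list, 3 markers reached 1 TPM in the vector library and 2 in the CRABP1 library, so another marker fell below 1 TPM. The part of these shifts in the members' values was not tested.

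With 20 reads in both pairs there were 11 members. By sign, 4 of these were lower in both lines (MAGEC2, PAGE1, MAGEA3 and MAGEA6), 0 were higher in both and 7 were opposite. Both counting intervals lay below 1 only for MAGEC2 and PAGE1. The interval included 1 for MAGEA3 in 8505C and for MAGEA6 in FTC-133. For CSAG3 and MAGEA11, which are among the 7, it included 1 in both lines. Of all 12288 protein-coding genes with 20 reads in each pair, 19.5% were lower in both lines, 32.3% higher in both and 48.2% opposite. MAGEA1 was one of the 7, with a ratio of 0.782 (0.699 to 0.876) in FTC-133 against 2.30 in 8505C. The difference between the lines was not tested, since each line has 1 pair.

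The third comparison set the lines side by side. Between the vector libraries, 28 members had 20 or more reads. Of these 1 (GAGE1) was higher by 2-fold in 8505C, where 9.73% of 13724 protein-coding genes were, and 21 (75%) were lower, where 16.4% of all genes were. The median log2 difference was -3.02 for the members and -0.13 for all genes compared. Most members passed the read minimum through FTC-133, so these counts lean to that direction by construction. For CTAG2, 628 reads against 0 put the 8505C level at least 196-fold lower with a floor of 3 reads, and MAGEB1 (253 reads against 0) was at least 78.7-fold lower. MAGEA10 was 254-fold lower (129 to 589) and PAGE5 202-fold lower (68.8 to 981).

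The same contrast was tested with limma over all 4 libraries, on log2(TPM + 1) of 19513 genes with a mean of 1 TPM or more and with line and transfection as terms. A library with CRABP1 and one with vector then stand in for replicates of a line, which leaves 1 residual degree of freedom. At a Benjamini-Hochberg adjusted p of 0.05, 24 of the 29 members tested differed. MAGEA3 was higher in 8505C, by 0.87 (SE 0.11, limma adjusted p = 0.0156), where 13.0% of all genes were higher. The other 23, CTAGE4 among them, were lower in 8505C, where 22.2% of all genes were lower. Here too the filter leans to that direction. Members such as PAGE2, CTAG2, MAGEA10, CT45A10, MAGEA9B, MAGEB1, MAGEB10, SSX5 and XAGE3 passed it through FTC-133 alone. The count and the adjusted p-values of such members are therefore a description. PAGE2 was lower by the widest margin, a log2 difference of -7.83 (SE 0.41, limma adjusted p = 0.00444), followed by CTAG2 at -6.76 (SE 0.16, limma adjusted p = 0.00336), MAGEA10 at -6.30 and PAGE5 at -6.27. Not called were GAGE2A, MAGEB6, PAGE2B, PAGE1 at 0.26 (limma adjusted p = 0.314) and XAGE2 at 0.00 (limma adjusted p = 0.995). The calls depend on the filter, the trend and the libraries. With no filter limma called 8 of 57 members and 0 higher in 8505C. With no trend it called 19 of 29 and 0 higher, where MAGEA3 (limma adjusted p = 0.0588), MAGEA6, MAGEA12, MAGEA4 and MAGEB2 were no longer called. With 1 library left out, the line was the only term, since no residual degree of freedom remains otherwise, and the lone library of a line was assumed to vary like the other line. With all 4 libraries and the line as the only term, 24 members were called. Without the 8505C vector library or without the 8505C CRABP1 library, limma called 0 members and 0 genes in all, at a smallest adjusted p of 0.0619 and 0.0648, although 25 and 24 members and 6783 and 6815 genes had an unadjusted p under 0.05. Without 1 FTC-133 library, 16 members were called in each case.

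Lists of related genes are given beside the members, each over its genes with a mean of 1 TPM or more in a line. The 2-fold call is again on log2(TPM + 1). Of 119 neighbours on chromosome X within 500 kb of a member measured in FTC-133, 2 were 2-fold higher and 3 lower, with a median log2 difference of 0.15. Of all 19899 genes with that mean, noncoding genes included, 6.02% were higher and 4.92% lower. The neighbours are all protein-coding. Of the 13665 protein-coding genes with 20 reads in the FTC-133 pair, which is another filter, 2.01% were higher and 1.4% lower. The neighbours past 2-fold included BGN, a matrix proteoglycan (0.764 TPM with vector and 28.2 TPM with CRABP1), and PNMA5 in Xq28 (123 and 30.7 TPM). Of 111 neighbours measured in 8505C, 1 was higher and 2 lower, S100G, ETDC and SPANXD, each on 6 reads or fewer a library. Of all 17561 genes with that mean in 8505C, noncoding genes included, 3.7% were higher and 4.07% lower. Of the 12818 protein-coding genes with 20 reads in the 8505C pair, 0.226% were higher and 0.499% lower. These shares stand beside the lists that follow as well. Of 25 DNA methylation and chromatin regulators, which include the factors that keep cancer-testis genes silent, 0 passed 2-fold in either line. DNMT3B, a de novo DNA methyltransferase, was at 48.3, 72.3, 10.8 and 10.3 TPM, TET1, which oxidises methylcytosine, at 4.85, 2.78, 2.27 and 1.91 TPM, and EZH2, a histone methyltransferase, at 76.8, 70.4, 28.3 and 44.2 TPM.

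Of the MAGE genes expressed in most tissues, 7 were measured in FTC-133 and 6 in 8505C, and 0 passed 2-fold on log2(TPM + 1). MAGED2, for one, was at 170, 219, 263 and 270 TPM, without the gap between lines seen in MAGEA, MAGEB and MAGEC. NDN was at 5.61, 2.65, 0 and 0 TPM, past 2-fold in plain TPM in FTC-133 but not on the log2(TPM + 1) scale. Of 10 partners of MAGE proteins, 0 passed 2-fold in either line, and PJA1, for one, was at 32.2, 47.6, 42.2 and 43.6 TPM. Other cancer-testis genes were not uniformly higher in FTC-133: of 13 measured there and 7 measured in 8505C, 1 was 2-fold lower with CRABP1 in each line, SPANXB1 and SPANXD, both on 12 reads or fewer. VCX3A was at 1.11, 3.05, 27.5 and 28.5 TPM, higher in 8505C, whereas SAGE1 was at 4.91, 9.50, 0 and 0 TPM. The summed level of this list was 72.2 and 76.1 TPM in FTC-133 and 156 and 190 TPM in 8505C.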

How the data were processed

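RNA of 4 samples, 1 library per group, had been sequenced, and the authors deposited 1 table of TPM (transcripts per 1000000) for 58884 Ensembl genes. The submitters' processing notes name featureCounts 2.0.0, Trimmomatic 0.38 and FastQC as tools and GRCh38 as the build. No source used here names the aligner, the strand setting or the treatment of reads that match several genes. Columns were assigned to samples by their labels.

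From these, TPM times the GENCODE 29 exon length gave reads, whole within 0.02 for 90.5% to 91.6% of values up to 50 reads and for 72.4% to 75.7% of all values. In 27 of the 37 named members all 4 values were whole, and otherwise the nearest whole number was used. Symbols came from the gene name table (58472 identifiers) or GENCODE 29 (2 members). Members with 1 TPM or 20 reads in some library are named with values. The members and lists were chosen with earlier results of these data known.

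Ratios of 2 libraries carry Clopper-Pearson intervals (95%, SciPy 1.17.1), which cover counting error only, and a floor of 3 reads for a 0. The lines were compared with limma 3.58.1 (trend, R 4.3.3, Benjamini-Hochberg) on log2(TPM + 1), a scale that understates changes of low genes. Tested on simulated data, it recovered most large changes between the lines and missed moderate ones. Far fewer genes changed in the simulation than limma called in these data, so its outcome does not give the power here. The p-values of limma reflect the spread between these samples alone, which may be technical. Likeness of proteins could not be computed and was replaced by the share of 100-base transcript stretches found in no other gene. With 50-base stretches that share was lower for members with near copies, such as PAGE2 (61.4%, against 80.5% at 100 bases) and CTAG2 (56.9%, against 75.5%). RefSeq promoters matched 65 of 93 members. MAGEA1, MAGEA10, CSAG2, CT45A5 and CTAG2 had no entry. Alternatives were another pseudocount, other filters, scalings, thresholds and limma designs, and leaving out each library.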

Additional observations from a re-analysis of the deposited data

Results flagged for a closer look

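In 3 genes the ratio of CRABP1 to vector lay on opposite sides of 1 in the lines, with both counting intervals clear of 1. CSAG1 had a ratio of 1.18 in FTC-133 and 0.67 in 8505C. MAGEA1 had 0.782 in FTC-133 and 2.3 in 8505C. MAGEB2 had 0.539 in FTC-133 and 1.59 in 8505C. The difference between the lines was not tested, since each line has 1 pair of libraries.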

How the results depend on the processing

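Of 66 counts under alternative settings, 51 stayed within 1.5 times the reported count and 15 did not. Counting members by an interval beyond 1 in place of 2-fold, a choice made after seeing the data, gave 6 higher and 13 lower in FTC-133 and 2 higher and 6 lower in 8505C. A 1.5-fold threshold gave 3 higher in 8505C with CRABP1 and 2 higher between the vector libraries, where 0 were higher at a mean of 5 TPM or with all genes at a mean of 1 TPM. For limma between the lines, no filter gave 8 of 57 members tested, no trend 19 of 29, and leaving out 1 library in turn, with the line as the only term, gave 0 to 16. Counted at 1 read or more, 50 members were detected in FTC-133 vector and 30 in each 8505C library, and at 20 reads or more 8 in 8505C CRABP1. Of 186 values of single members with a read in both libraries, 184 stayed within counting error, and 2 moved, both with a pseudocount of 0.1 between the vector libraries (MAGEA11 at -4.45 and MAGEA10 at -7.74). The other 24 values belong to members with 0 reads in a library, whose counting interval has no bound and cannot show stability. With a pseudocount of 0.1 all 8 such log2 differences moved by more than 1, CTAG2 from -6.87 to -10.18 and SSX5 from -2.89 to -6.03. The cause was not tested, except that a smaller pseudocount widens ratios of low genes by construction. CRABP1 was not tested with the line as a block, which would leave 1 residual degree of freedom, since the members were chosen with that contrast known. With 20 reads as the minimum, changes in members below it were not detectable at this depth.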
